A study of Homo sapiens with 36 samples.

Results

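The genes described here encode the enzymes that hydroxylate and cross-link collagen. They are the prolyl 4-hydroxylase α subunits P4HA1, P4HA2 and P4HA3, the lysyl hydroxylases PLOD1, PLOD2 and PLOD3, and the lysyl oxidases LOX, LOXL1 and LOXL2. These 9 genes, of 20033 protein-coding genes on the autosomes, X and Y, were followed through the V5 Cut&Run peaks. A peak was assigned to a gene if its summit lay in the gene body or within 50 kb of either end. By this rule 565 of 213711 peaks, or 0.264%, belonged to the 9 genes.

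The cells were 786-O, a line from a human clear cell renal carcinoma without working VHL, in which HIF-2α escapes degradation in normal oxygen. A truncating mutation also leaves these cells without functional endogenous HIF-1α. An anti-V5 antibody tethers a nuclease to the tagged protein, and each of the 18 anti-V5 libraries had been called on its own against a mouse IgG library of the same line. WT cells carried no tag, and the HIF-2α KIN line, the single clone A31, carried V5 and Halo at the N terminus of the endogenous HIF-2α. The other 4 lines kept untagged endogenous HIF-2α and stably expressed a V5-Halo protein from the L30 promoter, namely HIF-2α, HIF-1α or a chimera. HIF-2α/1α joins residues 1 to 365 of HIF-2α to residues 364 to 826 of HIF-1α, and HIF-1α/2α joins residues 1 to 363 of HIF-1α to residues 366 to 870 of HIF-2α. The N-terminal part holds the DNA-binding and dimerization domains and is called the DBD, and the C-terminal part is the intrinsically disordered region (IDR). Each of the 6 lines had 3 libraries, and levels of the tagged proteins were not analysed here. Tagged libraries are the 15 libraries outside WT, and exogenous libraries are the 12 of the last 4 lines.

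Collagen is modified in the endoplasmic reticulum and again outside the cell. The prolyl 4-hydroxylase α subunits pair with P4HB and hydroxylate proline, which the collagen triple helix needs to be stable at body temperature. The PLOD enzymes hydroxylate lysine, PLOD2 chiefly in the telopeptides, and the secreted lysyl oxidases convert lysine and hydroxylysine to the aldehydes that form cross-links. Both kinds of hydroxylase use oxygen, iron and 2-oxoglutarate, and several of these genes are known as hypoxia-induced. HIF-α pairs with HIF-1β and recognizes a short DNA motif, the hypoxia response element (HRE), searched here as ACGTG or GCGTG on both strands.

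For 6 of the genes, the copy of this motif nearest to the summit of a region described below is printed first, to show the sequence at the peaks that the results turn on. LOXL2 is described without sequence. Each line gives 25 bases of hg38, 5′ to 3′ on the stated strand, with the motif in capitals.
P4HA1, gene start, chr10:73096938-73096962, plus strand: agccctcgctACGTGagctcgatca
P4HA2, shared intron with PDLIM4, chr5:132266065-132266089, plus strand: cccagaggatGCGTGgataggcttc
PLOD1, upstream, chr1:11929987-11930011, minus strand: tacttctggtACGTGctgcacgtgc
PLOD2, inner start, chr3:146161383-146161407, minus strand: cagaagcgctGCGTGagcctccaca
PLOD3, gene start, chr7:101218147-101218171, plus strand: gggttagtacGCGTGcgcagcagtt
LOX, gene start, chr5:122078430-122078454, minus strand: tccctgtgcaACGTGtctgggggga
LOX, coding exon, chr5:122076939-122076963, minus strand: gcgtccacgtACGTGcagaagatgt
The motif lay 23 bp from the summit at PLOD3, 61 bp at PLOD2, 71 and 43 bp at the LOX start and exon, 77 bp at PLOD1, 126 bp at P4HA2 and 137 bp at P4HA1. A match of 5 letters is a description of the sequence and not of a bound site.

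Tagged lists held 3984 to 20808 peaks and WT lists 392, 9508 and 743, so that WT replicate 2 stood apart from the other WT libraries. Depth, solved from the deposited fold and p-value of each peak, was 0.241 to 0.625 fragments per base. Overlapping peaks were merged to 61215 regions, of which 25783 were called in at least 2 libraries and are the consensus regions.

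Near the collagen-modifying genes, tagged libraries held 550 of the 565 peaks. Tagged lists were also longer on average, with line means of 8163 to 17180 peaks against 3548 for WT. The count by itself does not set these genes apart from the rest of the lists. Library counts of these peaks were 1, 12 and 2 for WT, 18, 30 and 26 for KIN, 25, 57 and 20 for HIF-2α, 56, 50 and 37 for HIF-2α/1α, 35, 47 and 37 for HIF-1α, and 41, 42 and 29 for HIF-1α/2α. Every tagged library was above every WT library. As a share of the list the peaks near these genes were 0.217% ± 0.0788 (SD, n = 3) for WT, 0.345% ± 0.113 for KIN, 0.331% ± 0.0521 for HIF-2α, 0.290% ± 0.0455 for HIF-2α/1α, 0.231% ± 0.00233 for HIF-1α and 0.261% ± 0.0477 for HIF-1α/2α. The shares differed less between lines than the counts did.

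The peaks formed 98 regions, 63 of them consensus regions and 35 called in a single library. Of the 63, 35 lay in the gene body of the assigned gene and 28 outside it. For 29 of the 63 the nearest start site belonged to another protein-coding gene, so assignment to a collagen-modifying gene is by distance alone. At least 9 tagged libraries called 25 of the regions and at most 3 called 19. The median number of tagged libraries was 6, against 5 for all consensus regions. At least 2 WT libraries called 0 of the 63 regions, against 1.93% of all consensus regions, and any WT library called 10 of them, or 15.9%, against 14.3% of all.

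Calls in tagged and WT libraries were compared for each region with a two-sided Fisher's exact test, 15 libraries against 3, with Benjamini-Hochberg adjustment over all 25783 consensus regions. Of the 63 regions, 6 passed, each called in all 15 tagged libraries and in 0 WT libraries (Fisher's exact p = 0.00123, adjusted p = 0.0263), and 16 had an unadjusted p under 0.05, against 18.0% of all regions. Across the genome 4.66% of regions passed, against 9.52% of these. The 6 regions lay at 5 of the 9 genes, P4HA1, PLOD1, PLOD2, PLOD3 and LOXL2, and 10.9% of all protein-coding genes had a passing region in a window drawn by the same rule. The median window was 176 kb for the 9 genes and 127 kb for all genes. Without any 1 of the WT libraries, 0 of the 63 passed (adjusted p of the 6 regions 0.156, 0.118 and 0.156 without WT replicate 1, 2 and 3), with 15 libraries then set against 2.

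P4HA1, the main α subunit in most cells, carried its signal at the gene start. The region chr10:73095041-73098185 had its summit 113 bp upstream of the start site, and the 15 tagged summits lay within 48 bp of each other. Its rank in each list, counted from the strongest −log10 q, was 6, 31 and 19 in the KIN libraries, 19, 20 and 11 for HIF-2α, 25, 33 and 86 for HIF-2α/1α, 57, 104 and 92 for HIF-1α, and 39, 83 and 85 for HIF-1α/2α. P4HA1 therefore stood among the strongest peaks of every tagged list, at a median of 0.288% of list length. Fold enrichment over the local background was 34.4 to 142, and in the 14 libraries where whole fragments could be solved 157 to 1052 fragments covered the summit. The 2 WT peaks in the P4HA1 window lay beyond the 3′ end of the gene.

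P4HA2, an α subunit with a narrower tissue range, had the strongest region of the set by median list rank. The region chr5:132263411-132266828 lay in an intron of P4HA2 that is also an intron of PDLIM4, a LIM domain gene, and its summit was 4481 bp from the nearest PDLIM4 start site and 11649 bp from the nearest P4HA2 start site. List ranks were 14, 7 and 6 for KIN, 15, 21 and 14 for HIF-2α, 21, 16 and 11 for HIF-2α/1α, 43, 13 and 18 for HIF-1α, and 120, 25 and 23 for HIF-1α/2α. The 15 summits spanned 45 bp and the median rank was 0.124% of list length. WT replicate 2 also had a peak in this merged region, at −1770 bp from the common summit and at list rank 2909.5, which left the adjusted p at 0.166 (Fisher's exact test). When peaks were merged only by summits within 200 bp, the WT peak fell outside and the region passed (Fisher's exact test, adjusted p = 0.0291).

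A weaker P4HA2 region, chr5:132226895-132228637, lay 133 bp from an inner start site of the gene and was called in 12 tagged libraries and in WT replicate 2. Another, chr5:132293299-132294634, was called in 11 tagged libraries, 867 bp from a P4HA2 start site but 10 bp from that of SLC22A4, which encodes an organic cation transporter. P4HA3, the third α subunit, had 3 peaks in all, each in another library, with 1 in WT replicate 2 and 2 in KIN libraries at 91.3% and 97.9% of list length. None of the 12 exogenous libraries had a peak within 50 kb of P4HA3. With the α subunits side by side, the recurrent and strong peaks were at P4HA1 and P4HA2.

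PLOD2, the lysyl hydroxylase of the telopeptides, carried its main peak at an inner start site and not at the outermost one. In all 15 tagged libraries the strongest summit of chr3:146159550-146164871 lay 2254 to 2270 bp inside the outermost gene start, a spread of 16 bp. The region's summit was 38 bp from an annotated inner start of PLOD2. List ranks were 20, 58 and 112 for KIN, 17, 110 and 309 for HIF-2α, 37, 137 and 195.5 for HIF-2α/1α, 140, 40 and 190 for HIF-1α, and 86, 142 and 149 for HIF-1α/2α. The ranks of all 5 tagged lines overlapped, also in percent of list length. A separate peak within 300 bp of the outermost start was called in 9 tagged libraries, 2 of them KIN and 0 HIF-1α. Its ranks were 2146 to 11619.5 and its folds 4.30 to 10.5, against 16.3 to 142 at the inner start. In KIN replicate 2 and HIF-2α replicate 2 a single long peak ran across both starts, so no separate peak could be listed there.

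**Figure D1:**
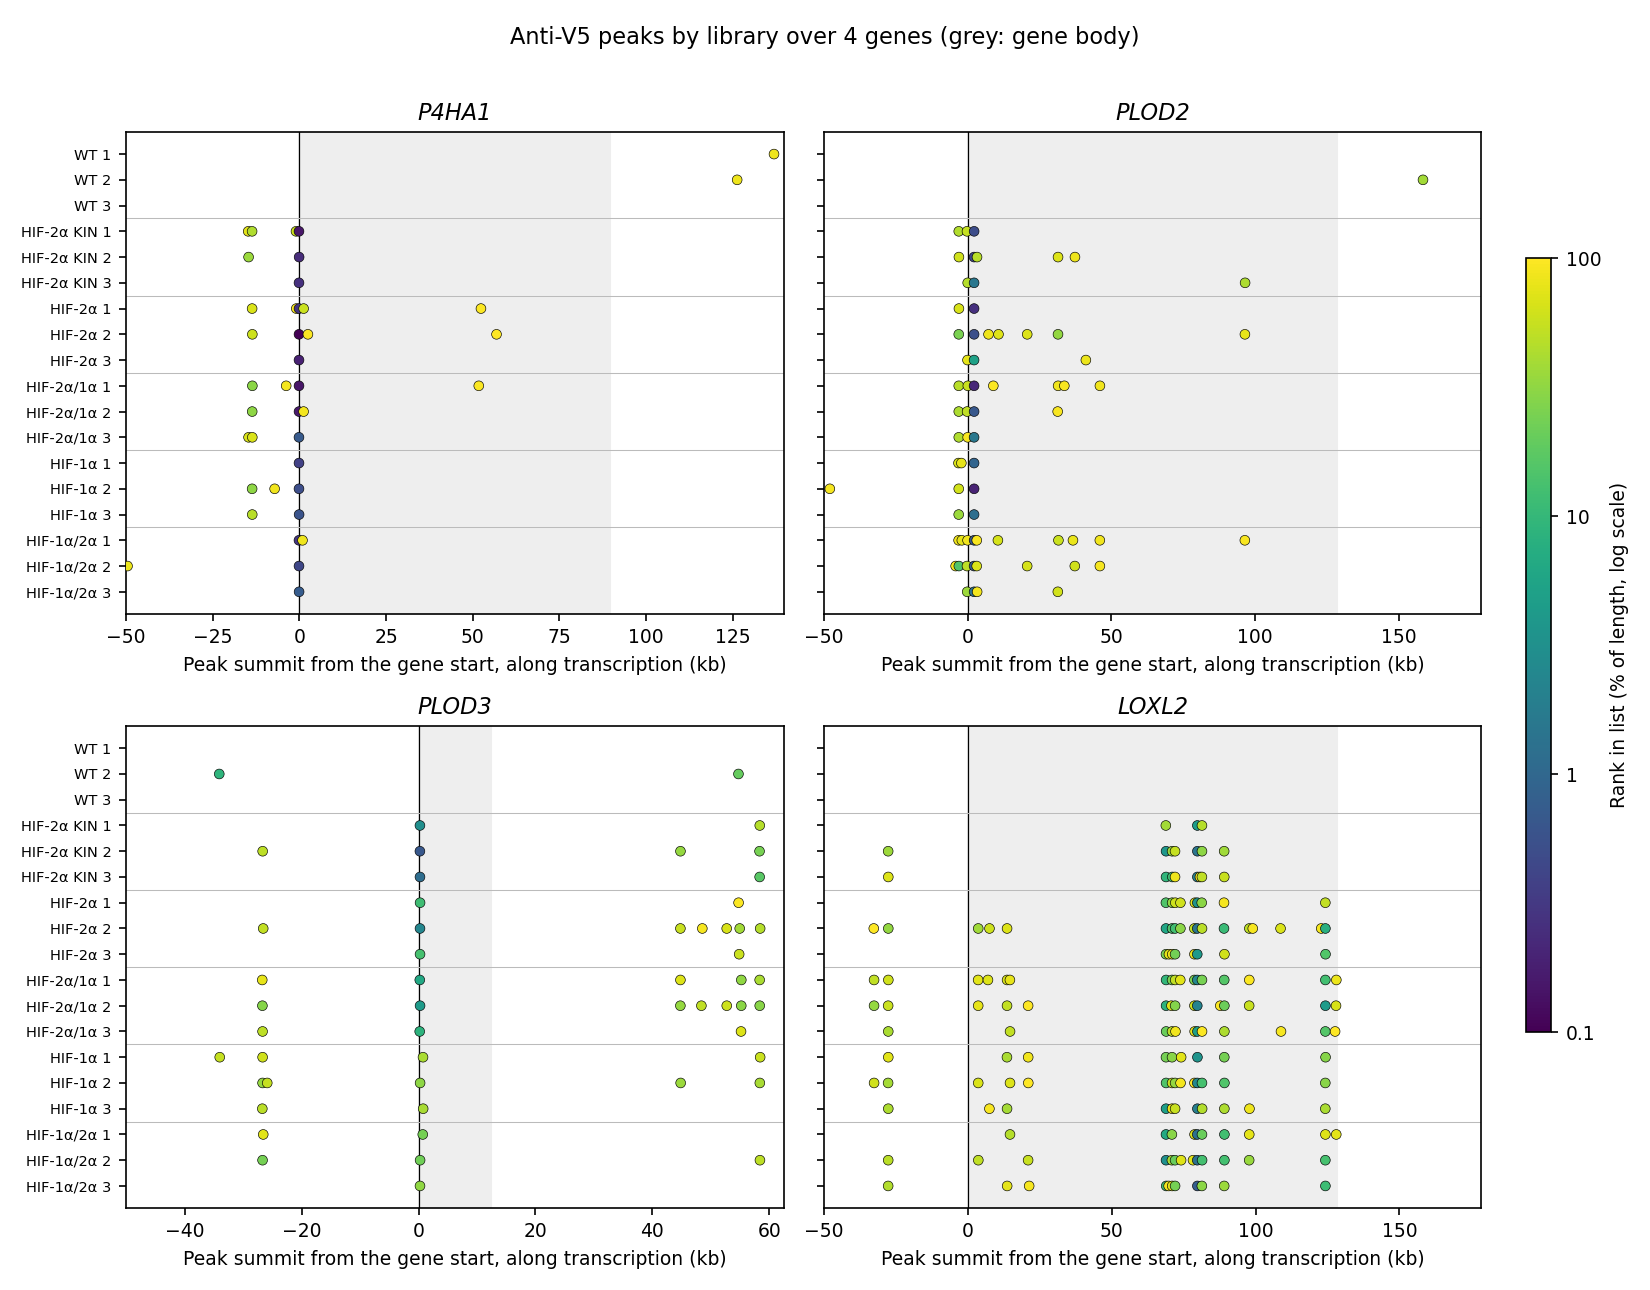
Positions of anti-V5 peaks in the 18 libraries (rows) at P4HA1, PLOD2, PLOD3 and LOXL2. The horizontal axis gives the distance of the peak summit from the gene start in kb along the direction of transcription, grey marks the gene body, and colour gives the rank in the library's list in percent of its length (log scale, dark is strong). P4HA1 and PLOD3 carry their strong peaks at the gene start, PLOD2 just inside it, and LOXL2 in a run of intronic peaks.

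PLOD1, the lysyl hydroxylase of the collagen helix that is mutated in a kyphoscoliotic connective tissue disorder, carried its lead region upstream. It was chr1:11929172-11930780, 4129 bp upstream of the PLOD1 start and 3648 bp from the start of KIAA2013. List ranks were 595.5, 437 and 2176 for KIN, 1775, 1805 and 1896 for HIF-2α, 1279, 1155 and 1032 for HIF-2α/1α, 1151, 248 and 446 for HIF-1α, and 985, 1012 and 1600.5 for HIF-1α/2α. In percent of list length, HIF-2α lay at 8.74 to 32.1 and overlapped HIF-1α/2α, at 5.33 to 13.7. Summit coverage was 17 to 176 fragments. At the PLOD1 start itself, 33 bp from a start site in the 5′ UTR, a region was called in 7 tagged libraries.

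PLOD3, which both hydroxylates lysine and adds sugars to hydroxylysine, was called at the gene start in all 15 tagged libraries. The region chr7:101217420-101219146 covers the divergent starts of PLOD3 and ZNHIT1, a zinc finger HIT domain gene. Its summit was 1 bp from the ZNHIT1 start and 184 bp from the nearest PLOD3 start, so the 2 promoters could not be separated. List ranks were 120, 87 and 84 for KIN, 764.5, 498.5 and 778 for HIF-2α, and 1068, 904 and 1043 for HIF-2α/1α. They were 6239.5, 6370 and 6437.5 in HIF-1α, and 3045, 4278.5 and 3747.5 in HIF-1α/2α.

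The lists differ in length, and in percent of list length the PLOD3 ranks were 0.659 to 3.01 for KIN, 2.41 to 13.2 for HIF-2α and 4.34 to 8.43 for HIF-2α/1α. They were 22.5 to 32.1 for HIF-1α/2α and 31.0 to 41.4 for HIF-1α. On this scale exogenous lines of the same DBD overlapped and those of different DBDs did not. Summit coverage was 89 to 279 fragments for KIN, 63 to 316 for HIF-2α and 62 to 305 for HIF-2α/1α. It was 20 to 55 in HIF-1α and 36 to 53 in HIF-1α/2α. The position of the summit differed too. In 12 tagged libraries it was within 100 bp of the common summit, and in HIF-1α replicates 1 and 3 and HIF-1α/2α replicate 1 it was displaced by −531, −557 and −490 bp. When peaks were merged only by summits within 200 bp, the region was called in 12 of 15 tagged libraries and no longer passed against WT (Fisher's exact test, adjusted p = 0.187).

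LOX, the founding lysyl oxidase, was called less strongly. Its start-site region chr5:122077960-122078886, with the summit 100 bp upstream, was called in 12 tagged libraries and 0 WT libraries (Fisher's exact p = 0.0245, adjusted p = 0.166). By line it was called in 1 of 3 KIN libraries, in all 3 of HIF-2α, HIF-2α/1α and HIF-1α/2α, and in 2 of 3 HIF-1α libraries. Its best list rank was 2103, with 11 to 63 fragments at the summit. A second region in a LOX coding exon, chr5:122076221-122077419, was called in 0 KIN, 1 HIF-2α, 3 HIF-2α/1α, 3 HIF-1α and 2 HIF-1α/2α libraries. With the HIF-1α IDR 6 of 6 libraries called the exon and with the HIF-2α IDR 3 of 6, a difference that did not pass (Fisher's exact p = 0.182). Lists were also longer with the HIF-1α IDR, at line means of 16719 and 17180 peaks against 11049 and 14579. Across the genome, 333 regions with an unadjusted Fisher's exact p under 0.05 had more calls with the HIF-1α IDR and 24 with the HIF-2α IDR.

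LOXL1, which acts on elastin, had its most recurrent region at chr15:73897507-73898452, 27814 bp upstream of its start and 24529 bp from that of TBC1D21. It was called in 12 tagged and 0 WT libraries, at 1 of 3 in KIN, 2 of 3 in HIF-2α and 3 of 3 in each of the other exogenous lines. Its start-site region, chr15:73926407-73927625, was called in 7 tagged libraries, none of them KIN.

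LOXL2, which is linked to fibrosis and tumor stroma, held the most peaks of the set, 165 of 565, and none came from WT. The gene body spanned 128432 bp and contained 15 consensus regions, mostly in introns. The lead region, chr8:23343366-23345901, lay in an intron 79808 bp inside the gene. List ranks were 179, 191 and 146 for KIN, 229.5, 308 and 239 for HIF-2α, 414, 462 and 618.5 for HIF-2α/1α, 543.5, 524 and 304.5 for HIF-1α, and 173, 240 and 89 for HIF-1α/2α. In percent of list length HIF-1α/2α lay at 0.762 to 1.32. The other tagged lines overlapped, at 1.45 to 4.49 for KIN, 1.49 to 4.05 for HIF-2α, 2.22 to 5.00 for HIF-2α/1α and 1.91 to 3.61 for HIF-1α. A second intronic region, chr8:23355647-23356956, was also called in all 15 tagged and 0 WT libraries, at 9.53% of list length in the median. A region 105 bp from an inner LOXL2 start site, 20997 bp inside the gene, was called in 5 tagged libraries, 0 of them KIN or HIF-2α.

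**Figure D2:**
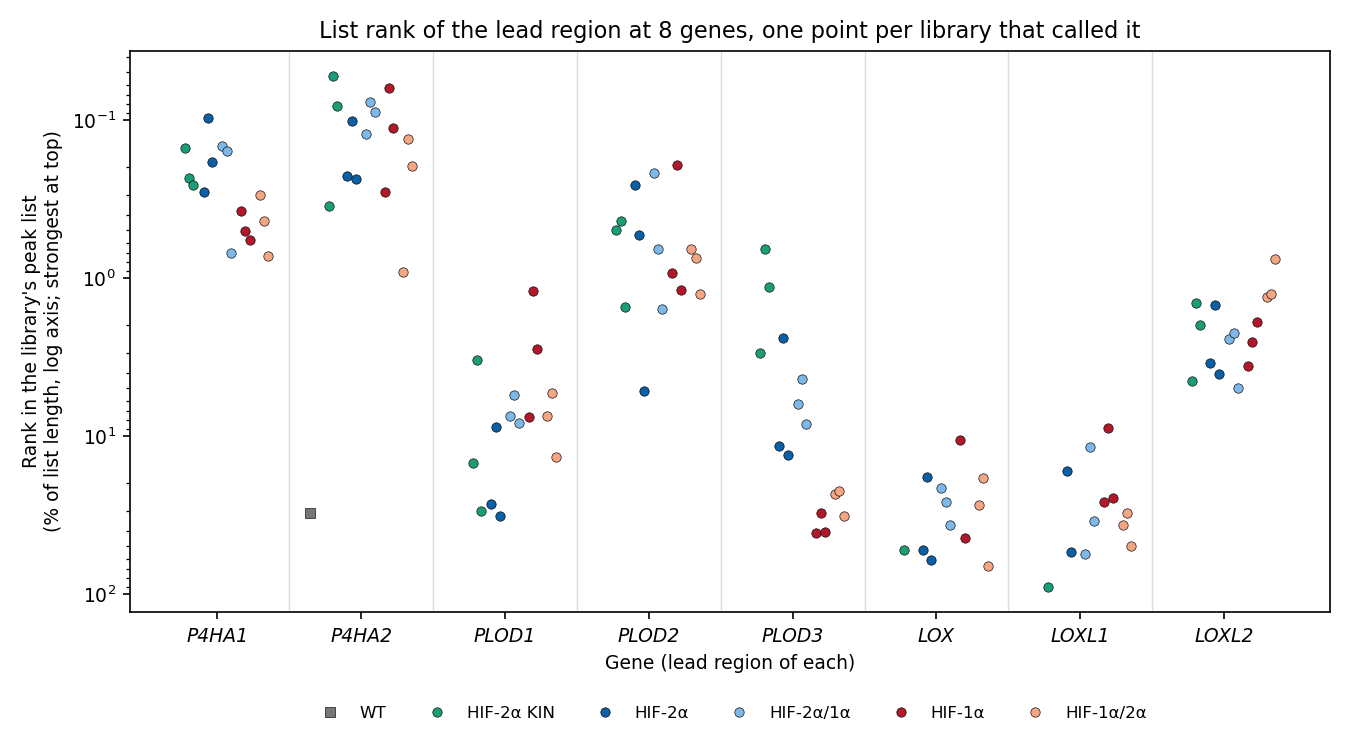
Rank of the lead region of 8 genes in each library that called it, in percent of list length on a log axis with the strongest at the top. P4HA3 is left out because its region was called in 1 library. All P4HA1, all tagged P4HA2 and all but 1 of the PLOD2 points lie in the top 2%, the LOX and LOXL1 points lie beyond the top 8%, and the PLOD3 points of the 2 DBDs do not overlap.

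Promoter calls were counted for each gene. A promoter peak had its summit within 1 kb of any start site of the gene. It was called in all 15 tagged and 0 WT libraries at P4HA1, PLOD2 and PLOD3, 3 of 9 genes, against 2.16% of all protein-coding genes. LOX followed with 13 tagged libraries, P4HA2 with 12 and 1 in WT, PLOD1 and LOXL1 with 7 each, LOXL2 with 5 and P4HA3 with 0. A promoter peak in at least 2 of 3 libraries was found at 0 of the 9 genes for WT, 4 for KIN, 5 for HIF-2α, 7 for HIF-2α/1α, 8 for HIF-1α and 6 for HIF-1α/2α. The same held for 0.374% of all genes for WT, 8.78% for KIN, 11.9% for HIF-2α, 26.8% for HIF-2α/1α, 28.3% for HIF-1α and 20.4% for HIF-1α/2α. Both the counts for the 9 genes and the shares of all genes were higher in the exogenous lines, which had longer lists on average, than in KIN.

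**Figure D3:**
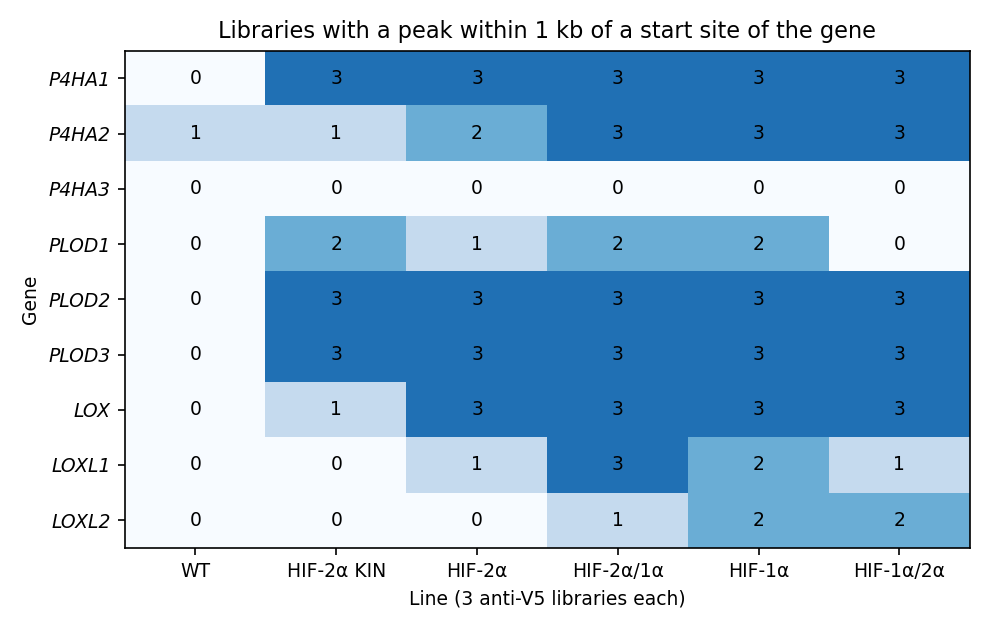
Number of libraries, of 3 in each line (columns), with a peak within 1 kb of a start site of each gene (rows). P4HA1, PLOD2 and PLOD3 have 3 of 3 in every tagged line, P4HA3 has 0 throughout, and LOX, LOXL1 and LOXL2 have at most 1 in KIN.

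An HRE lay within 50 bp of the summit at 13 of the 63 regions, or 20.6%, against 24.1% of all consensus regions, and at 2 of the 6 regions that passed against WT. Of all regions that passed, 32.6% had one. Those 2 were the PLOD3 start and the second LOXL2 intron. An AP-1 motif, TGAGTCA or TGACTCA on either strand, lay within 50 bp at 6 regions, against 8.29% of all. The P4HA1 region held 6 copies of the HRE, none of them within 100 bp of its summit, and the PLOD2 region held 9, with 2 of them that near. The lead LOXL2 region held 7 with 2 within 100 bp. The lead regions of P4HA1 and P4HA2, with the strongest peaks, had none within 100 bp.

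The domain swaps ask which part of HIF-α goes with binding at these genes. For calls, the 6 libraries with the HIF-2α IDR were compared with the 6 with the HIF-1α IDR, and likewise for the DBD, over the 25285 consensus regions called in fewer than 2 WT libraries. Of the 63 regions, 0 had an unadjusted Fisher's exact p under 0.05 for the IDR, against 1.41% of all regions. For the DBD there were 2, against 0.562% of all, and neither passed adjustment (adjusted p = 1, Fisher's exact test). For either domain, 0 regions of the genome passed adjustment by this test.

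The 2 DBD regions lay at neighbouring genes and not at the enzymes. In the PLOD3 window, chr7:101162998-101163892 in a coding exon of VGF, a neuropeptide precursor gene, was called in 3 of 3 HIF-2α and 3 of 3 HIF-2α/1α libraries and in 0 HIF-1α, HIF-1α/2α or KIN libraries (Fisher's exact p = 0.00216). WT replicate 2 called it as well, and the HIF-2α and HIF-2α/1α summits were apart, at −214 to −23 bp and −485 to −440 bp from the region's summit. Merged by summits within 200 bp it had p = 0.182, and with all lists shortened to the 3984 strongest peaks p = 1 (Fisher's exact test). In the PLOD1 window, chr1:11979727-11980493 in the 5′ UTR of MFN2, a mitochondrial fusion gene, was called in 3 of 3 HIF-1α and 2 of 3 HIF-1α/2α libraries and in 0 of the other tagged libraries (Fisher's exact p = 0.0152). With peaks of −log10 q of at least 5 only, this p was 0.182.

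Strength was compared at regions called in all 12 exogenous libraries. There were 2566 such shared regions and 10 of them lay near the collagen-modifying genes, 5 in LOXL2 and 1 each at P4HA1, P4HA2, PLOD1, PLOD2 and PLOD3. Each region's percentile rank among the 2566 was taken by −log10 q in each library, so that a low percentile is a strong peak. Means of 6 libraries were compared by a two-sided exact permutation test over 400 relabellings, within lines of the same other domain, with a smallest possible p of 0.005.

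The PLOD3 start had the largest DBD difference of the 10. Its percentiles were 27.1, 17.9 and 27.7 for HIF-2α, 36.7, 32.1 and 36.1 for HIF-2α/1α, 87.3, 92.5 and 91.1 for HIF-1α, and 72.8, 86.5 and 80.4 for HIF-1α/2α. Their means were 29.6 for the HIF-2α DBD and 85.1 for the HIF-1α DBD, −55.5 points apart and with no overlap (exact permutation p = 0.005, adjusted p = 0.0530). PLOD1 went the other way, with 49.2 for the HIF-2α DBD and 29.2 for the HIF-1α DBD, or 20.0 points between the means (exact permutation p = 0.005, adjusted p = 0.0530). P4HA1 had means of 1.14 and 2.68, or −1.54 points at the top of the ranking (exact permutation p = 0.025, adjusted p = 0.127). So 3 of 10 regions had an unadjusted p under 0.05 for the DBD, against 26.0% of shared regions, and neither these nor any other shared region passed adjustment.

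Ranked by fold enrichment, the DBDs were −44.4 points apart at PLOD3 (exact permutation p = 0.005, adjusted p = 0.164), and by rank in the whole list −24.1 points (exact permutation p = 0.005, adjusted p = 0.121). Its direction held in each of the 12 fits that left out 1 library, with differences of −57.3 to −53.8 points. All PLOD3 percentiles, for the DBD and the IDR, used each library's strongest peak in the merged region. In HIF-1α replicates 1 and 3 and HIF-1α/2α replicate 1 that summit lay 769, 795 and 728 bp inside the gene start. In the other exogenous libraries it lay at 205 to 271 bp. The rank tests were not run with peaks merged by summits, so these percentiles do not all compare the same position.

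For the IDR, 4 of the 10 regions had an unadjusted p under 0.05, against 31.4% of shared regions, and 2 passed adjustment, against 12.5% of shared regions. The lead LOXL2 region had mean percentiles of 7.57 for the HIF-2α IDR and 16.8 for the HIF-1α IDR, −9.25 points apart (exact permutation p = 0.005, adjusted p = 0.0401). Its percentiles were 8.16, 11.1 and 8.57 for HIF-2α, 6.04, 8.34 and 3.20 for HIF-1α/2α, 15.0, 16.6 and 22.0 for HIF-2α/1α, and 18.7, 18.0 and 10.5 for HIF-1α. All 3 HIF-2α/1α libraries and 2 of 3 HIF-1α libraries lay outside the range of the HIF-2α IDR libraries. PLOD3 had 52.1 and 62.6, a mean shift of −10.6 points, present within each DBD (exact permutation p = 0.005, adjusted p = 0.0401).

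Neither IDR call held in every setting. Ranked by fold enrichment the LOXL2 means were −23.5 points apart (exact permutation p = 0.005, adjusted p = 0.156) and the PLOD3 difference turned to 0.57 points (exact permutation p = 0.935), and by rank in the whole list they were −0.893 and −4.47 points (exact permutation p = 0.205 and 0.245). Leaving out 1 library at a time, 0 regions passed without any 1 library of HIF-2α, HIF-2α/1α or HIF-1α/2α. Passing regions numbered 1 without HIF-1α replicate 2 and at most 3 otherwise. The PLOD3 region passed in none of these 12 fits (exact permutation test, adjusted p = 0.0508 to 0.0736).

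Near the threshold, PLOD1 had mean percentiles of 48.8 for the HIF-2α IDR and 29.6 for the HIF-1α IDR, 19.1 points apart (exact permutation p = 0.015, adjusted p = 0.0726). A further LOXL2 intron, chr8:23352602-23355575, had 69.7 and 90.4, or −20.7 points (exact permutation p = 0.015, adjusted p = 0.0726). Its tagged summits spanned 1116 bp, with 4 of 14 within 100 bp of the common summit, so libraries were ranked on different peaks. Leaving out 1 library at a time gave −24.4 to −3.99 points (exact permutation test, adjusted p = 0.0487 to 0.734). All 5 shared LOXL2 regions had lower mean percentiles with the HIF-2α IDR, with 1 of them past adjustment, and they lie in 1 gene and share their libraries. Within the HIF-2α DBD 2 of the 5 went the other way, chr8:23300678-23301452 by 6.79 points and chr8:23335734-23337993 by 0.77 points. The median IDR difference was −5.85 points over the 10 regions and 0.26 over all shared regions, and 7 of 10 were negative against 49.1% of all. For the DBD the medians were −0.187 and −1.11 points.

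PLOD2 and P4HA2 did not pass for either domain. PLOD2 had mean percentiles of 4.85 and 4.30 for the HIF-2α and HIF-1α IDR (exact permutation p = 0.785) and 4.81 and 4.34 for the DBDs (exact permutation p = 0.815), and its libraries ranged from 0.585 to 11.1. P4HA2 had 1.28 and 0.669 for the IDRs (exact permutation p = 0.430) and 0.552 and 1.40 for the DBDs (exact permutation p = 0.095). All 12 libraries placed P4HA2 in the top 4.29% of shared regions and PLOD2 in the top 11.1%.

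**Figure D4:**
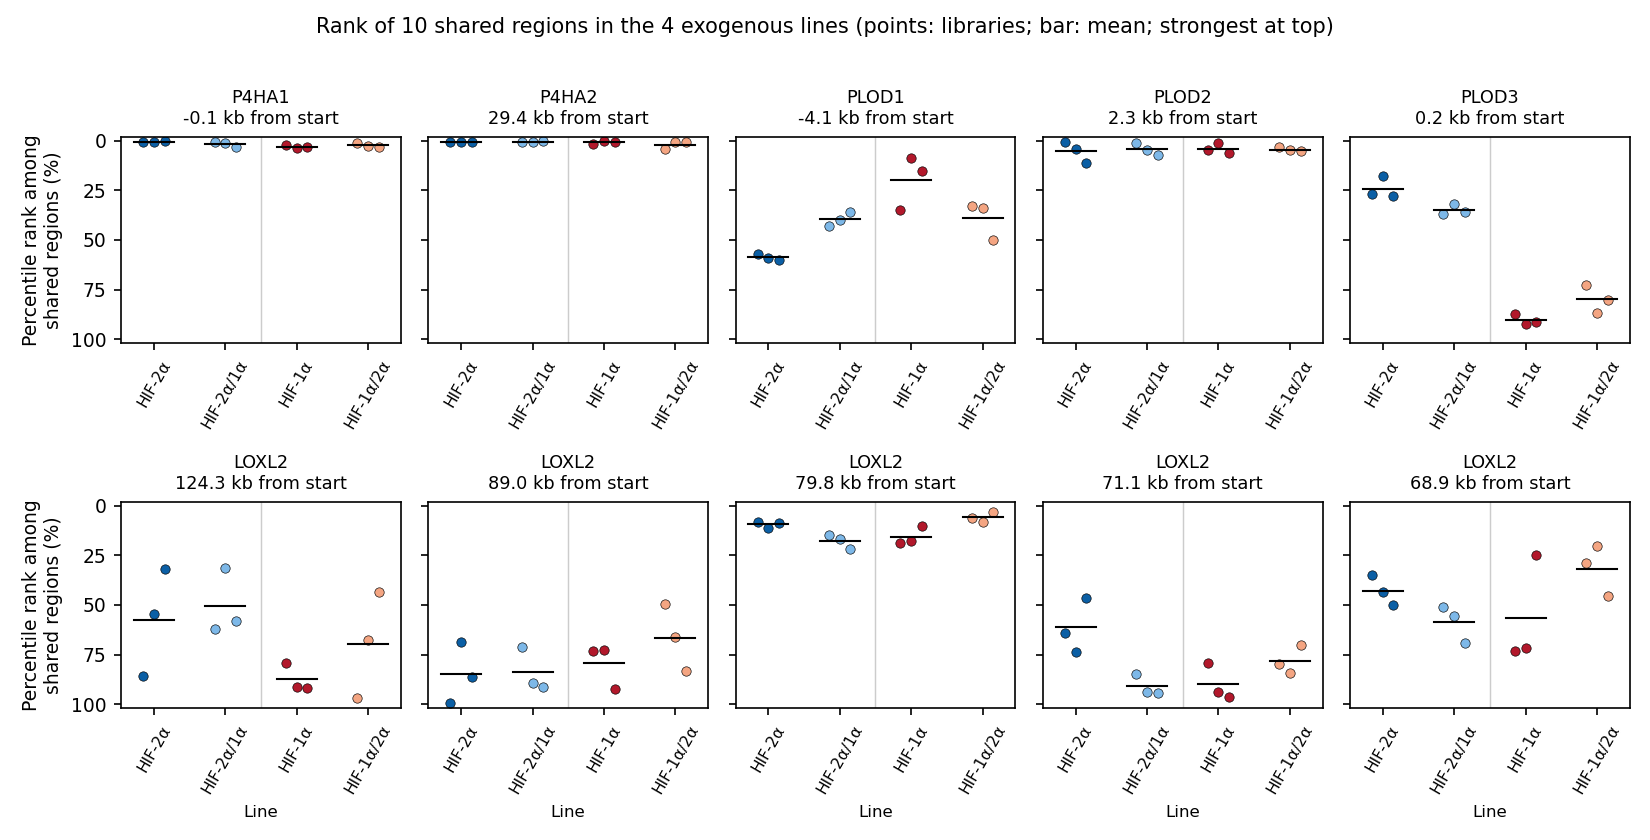
Percentile rank of the 10 shared regions among all 2566 shared regions in the 12 exogenous libraries (points) with the mean of each line (bar), strongest at the top. Lines left of the grey divider carry the HIF-2α DBD and lines right of it the HIF-1α DBD. At PLOD3 the DBDs are apart (29.6 against 85.1 on average), PLOD1 runs the other way, and P4HA1, P4HA2 and PLOD2 stay near the top in all lines.

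The 3 regions outside the windows with ranks most like those of the P4HA2 lead region were sought over the 12 exogenous libraries. They lay nearest to RPTOR (chr17:80891126-80893465), MYEOV (chr11:69418946-69421984) and NDRG1 (chr8:133319745-133322349), with mean absolute differences of 0.568, 0.653 and 0.656 percentile points.

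Other genes of collagen modification were counted by the same rule. They were 20 genes for the remaining lysyl oxidases, prolyl 3-hydroxylation, hydroxylysine glycosylation, chaperoning, export and propeptide removal. Of these, 4 had a region that passed against WT, namely P4HB, the shared partner of the P4HA subunits, P3H2 and P3H3, which belong to the prolyl 3-hydroxylases, and COLGALT2, a collagen galactosyltransferase. Of all protein-coding genes, 10.9% had a passing region by the same rule. Of the 85 consensus regions at the 20 genes, 5 passed, against 4.66% of all consensus regions. P4HB and P3H2, 2 of the 20 genes, had a promoter peak in 15 of 15 tagged and 0 WT libraries, against 2.16% of all protein-coding genes. LOXL4, ADAMTS2 and ADAMTS14 had none in any library. Of the 85 regions, 0 had an unadjusted Fisher's exact p under 0.05 for either domain. Among the passing regions, that of P4HB lay 300 bp from its start, at a median of 5.53% of list length.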

How the data were processed

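Cut&Run libraries from 6 lines of 786-O cells, 18 with anti-V5 and 18 with mouse IgG, were assigned to lines and replicates from the sample labels, which give 3 replicates per line. Per the labels and methods, the authors aligned reads to hg38 with bowtie2 2.3.4.1, ran MACS2 for each anti-V5 library against IgG, without pooling and with duplicates kept, at a q-value of 0.01, and removed blacklisted regions with BEDTools 2.28.0. The deposited lists give a fold enrichment, which is a ratio, and −log10 p and −log10 q values, all at the summit. IgG libraries enter only through these calls. Neither unit is a read count, and a longer list can come from a deeper or cleaner library, so absence from a list does not show absence of binding.

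Analyses used Python 3.11.15, NumPy 2.4.6, SciPy 1.17.1, pandas 2.3.3, pysam 0.24.0 and matplotlib 3.10.9, with GENCODE release 44. Peaks overlapping by at least 1 bp were merged. Regions called in at least 2 libraries were tested with Fisher's exact test, and shared regions with exact permutation tests. Whole fragments at a summit were computed from fold and −log10 p, up to a −log10 p of 100 when depth was fitted, and could not be solved for the strongest peaks of HIF-2α/1α replicate 2. The tests were tried on simulated data. All 9 genes are named, each with its lead region (most tagged calls, then the smallest median rank). Every consensus region within 1 kb of their start sites is described too, as is every region with an unadjusted p under 0.05 for a domain. Regions near a start site that only 1 library called are not described. The genes, lists and tests were chosen with earlier results of these data known. Alternatives were a −log10 q of at least 5, lists of equal length, summit merging, other flanks and motif settings, ranks by fold or in the whole list, a replicate block, and leaving out each library.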

Additional observations from a re-analysis of the deposited data

How the results depend on the processing

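Deviations of same-numbered libraries of different lines correlated weakly, at −0.0419 to 0.126 (45 pairs, median 0.00886, 1 of them over 0.1). A weak correlation cannot show that the libraries were unpaired. Replicate 2 had the longest list in every line, at 9508 peaks for WT and 13193 to 20808 for the tagged lines. Why the replicate number went with list length was not tested. With the replicate number as a block, 0 of the 63 regions passed against WT in place of 6, 1 in place of 2 had an unadjusted p under 0.05 for the DBD, and 0 in place of 2 shared regions passed for the IDR. Such a block allows fewer relabellings. The number passing against WT ranged from 0 to 8 when each library was left out, with 0 only without a WT library. The number of shared regions passing for the IDR ranged from 0 to 3, and was 0 without any 1 of the HIF-2α, HIF-2α/1α or HIF-1α/2α libraries and 1 without HIF-1α replicate 2. It was 0 with ranks by fold and 0 with ranks in the whole list, and the PLOD3 difference for the IDR then turned to 0.57 points by fold. The cause was not tested. Regions with an unadjusted p under 0.05 for the DBD numbered 1 with a −log10 q of at least 5, 0 with lists of equal length and 1 with summit merging. With lists of equal length 1 region had such a p for the IDR, in an intron of LOXL2 at chr8:23352677-23354958, called in 6 of 6 libraries with the HIF-2α IDR and 0 of 6 with the HIF-1α IDR (Fisher's exact p = 0.00216, adjusted p = 0.574). An HRE lay within 100 bp of 27 of the 63 summits, and within 50 bp of 7 when only ACGTG was searched, in place of 13. The shares of all consensus regions at these other settings are not given, so these counts cannot be set against the genome. Genes with a passing region numbered 4 with lists of equal length and 5 with other flanks or the stricter q, and 0 shared regions passed for the DBD under every setting run. Depth was 0.241 to 0.625 fragments per base, and the weakest peaks in the regions named here rested on 5 fragments at the summit.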
